A study of Mus musculus with 3 samples.

Results

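Ephrins are membrane-bound ligands and Eph receptors are the receptor tyrosine kinases that bind them. The data hold 10 of these genes under study here, the 4 ligands Efna1, Efna5, Efnb1 and Efnb2 and the 6 receptors Epha2, Epha4, Ephb1, Ephb2, Ephb3 and Ephb4, out of 25154 genes listed in any of 3 libraries. They were taken by name from the gene columns, and each of the 10 was present in each library. The libraries hold single-nucleus RNA sequencing (snRNA-seq) of interscapular brown adipose tissue (BAT) from adult mice that the labels call WT and C57Bl6, given as C57BL/6J in the study's methods. The header of the denervated table carries the run name nKO, which neither the labels nor the methods explain, and the labels were followed. Each of 3 conditions had 1 library: BAT without treatment, BAT with a sham operation, and BAT denervated 3 days earlier. The untreated and denervated libraries each came from 20 mice, aged 8 weeks. The denervated lobe was the one on the operated side, and tamoxifen is named for that experiment. The study's methods state that all mice used were male. The day and number of mice of the sham library, and whether it came from operated mice or from the intact lobe of denervated ones, were not given in the sources used here. Nuclei came from the floating layer of the digested tissue, which holds lipid-filled brown adipocytes (BAs) with fragments of vessels, so that stromal cells and nerves are covered only as far as they floated along.

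Binding between an ephrin and an Eph receptor needs contact between cells, and it signals in both directions, through the kinase of the receptor and, for the transmembrane B-class ligands, through the tail of the ligand. A-class ligands are held by a lipid anchor and bind mainly EphA receptors, and B-class ligands bind mainly EphB receptors and also EphA4. In blood vessels the family is best known for the division between arteries, which carry ephrin-B2 (Efnb2), and veins, which carry EphB4 (Ephb4). Brown fat is densely supplied with capillaries and sympathetic nerves, so its nuclei include several cell types in which the family has known roles.

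The deposited values are counts of unique molecular identifiers (UMIs), each of which stands for 1 captured RNA molecule. After filtering, 10931, 12366 and 9734 nuclei remained in the 3 libraries, in the order untreated, sham, denervated, with a median of 969, 749 and 688 UMIs. The libraries shared 251 to 278 cell barcodes, at most 1.85% of the smaller of each pair. Nuclei were grouped by clustering without any ephrin or Eph gene and named from marker genes, and a group is called "-like" for that reason. Endothelial cell (EC)-like nuclei numbered 5356, 5766 and 2150 in the untreated, sham and denervated libraries, BA-like nuclei 4566, 4175 and 4910, and pericyte-like nuclei 573, 1365 and 630. The 13 endothelial markers summed to 16200, 13700 and 14100 UMIs per 1000000 UMIs (CPM) in EC-like nuclei and to 410, 421 and 316 CPM in BA-like nuclei. The median UMI number was 671, 521 and 367 in EC-like and 1815, 1332 and 891 in BA-like nuclei. Values below are CPM of the summed UMIs of a group with an exact 95% Poisson interval, and differences are log2 ratios of CPM with an exact conditional interval. With 1 library per condition there was no replicate and no test, and all intervals cover counting error only. Levels are set side by side only within a gene, since counts were not scaled to transcript length.

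The sequences of 3 promoters are shown because these genes marked the main divisions described below: Efna5 was the adipocyte-high ligand, and Efnb2 and Ephb4 are the classical arterial and venous pair. Each is the stretch of 250 bases before the RefSeq transcription start on GRCm38.p6, read in the direction of the gene, and capitals mark the GC box GGGCGG or its reverse complement CCGCCC. Efna5 lies on the minus strand at chr17:62881318-62881567, Efnb2 on the minus strand at chr8:8661243-8661492 and Ephb4 on the plus strand at chr5:137349859-137350108.
Efna5: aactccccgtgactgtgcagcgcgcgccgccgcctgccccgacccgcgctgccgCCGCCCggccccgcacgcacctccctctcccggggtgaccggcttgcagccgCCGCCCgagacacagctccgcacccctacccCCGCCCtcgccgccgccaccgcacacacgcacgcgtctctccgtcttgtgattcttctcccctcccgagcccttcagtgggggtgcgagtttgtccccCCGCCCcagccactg
Efnb2: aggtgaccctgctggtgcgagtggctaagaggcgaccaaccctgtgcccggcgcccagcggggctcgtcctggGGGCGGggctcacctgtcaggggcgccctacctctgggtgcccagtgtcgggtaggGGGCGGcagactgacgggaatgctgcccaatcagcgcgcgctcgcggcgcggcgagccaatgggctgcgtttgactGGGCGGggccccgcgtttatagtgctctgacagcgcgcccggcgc
Ephb4: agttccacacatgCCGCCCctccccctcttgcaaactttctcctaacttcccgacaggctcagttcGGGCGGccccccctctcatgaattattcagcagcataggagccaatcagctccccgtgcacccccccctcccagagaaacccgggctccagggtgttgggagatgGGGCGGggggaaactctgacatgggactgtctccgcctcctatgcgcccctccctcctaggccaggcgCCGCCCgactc
The Efna5 promoter held 4 GC boxes, the Efnb2 promoter 3 and the Ephb4 promoter 4. A GC box on either strand was found for 7 of the 10 genes and in 32.7% of the 32851 RefSeq promoters of the same length. Efna5 and Efnb2 were rich in G and C, at 74.8% and 72%, with 32 and 27 CG pairs, and Ephb4 had 64.0% and 12, beside medians of 52.4% and 6 over all promoters. The core motif of ETS factors, GGAAG on either strand, was found for 7 of the 10 genes and in 64.1% of all promoters. Of the 3 genes shown, these letters occurred only in Ephb4. The longer form CCGGAAG (6.91% of all promoters) and the RBPJ motif GTGGGAA (5.42%) were found in none of the 10. These are matches of letters in a short window and say nothing about binding.

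Most of these genes were higher in EC-like than in BA-like nuclei, with Efna5 as the large exception. Between EC-like and BA-like nuclei, 7 of the 9 genes with enough UMIs were higher in EC-like nuclei and 2 were lower, and by the settings reported here these were the same genes in each library. Efna1, Efnb1, Efnb2, Epha2, Epha4, Ephb1 and Ephb4 were higher, Efna5 and Ephb2 were lower, and Ephb3 was under the minimum of 20 UMIs. A gene was counted as higher or lower when its log2 ratio was at least 1 in size with an interval that left out 0. By the same rule 18.7%, 19.8% and 17.8% of all genes were higher in the untreated, sham and denervated libraries, and 26.5%, 24.2% and 21.9% were lower. The 10 genes had been chosen with earlier results of these data known, which limits this comparison. Of the 6, 6 and 5 other ephrin and Eph genes with enough UMIs, 0 were higher in EC-like nuclei and 2, 2 and 1 were lower. The median log2 ratio of the 9 genes was 3.91, 3.81 and 3.98, and that of all genes -0.29, -0.11 and -0.23. The plot of levels by nucleus type shows all 10 genes in the named types.

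**Figure D1:**
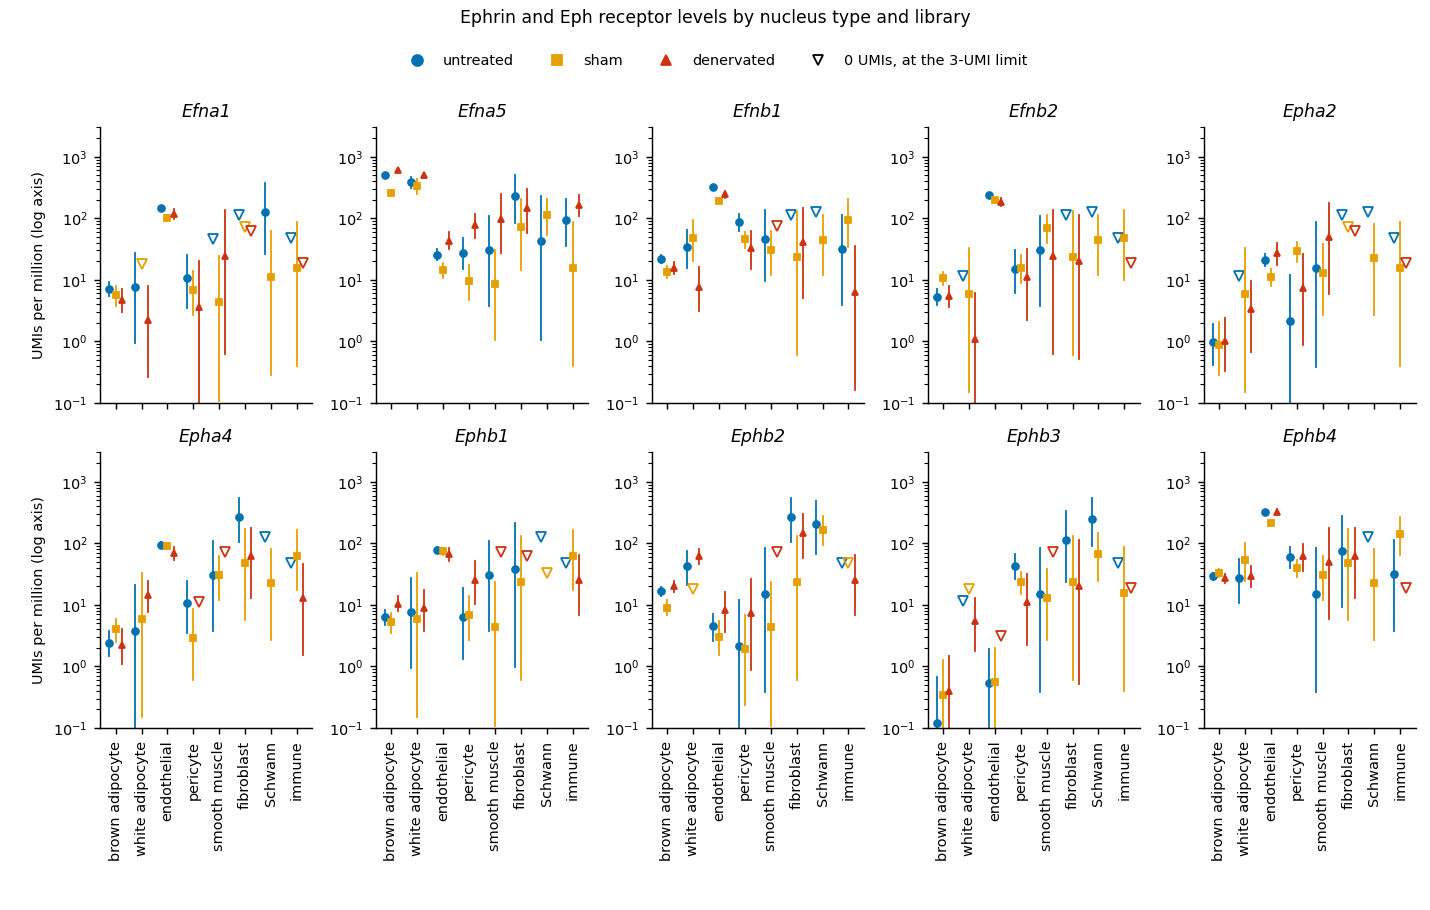
CPM (log axis) of each gene in 8 nucleus types, for the untreated (blue circles), sham (orange squares) and denervated (red triangles) libraries. Lines are exact 95% Poisson intervals, cut at the lower edge of the axis, and open triangles stand for 0 UMIs, drawn at the level that 3 UMIs would have there. Efna5 is highest in both kinds of adipocyte-like nuclei, at 260 to 614 CPM in brown ones, while Efna1, Efnb1, Efnb2, Ephb1 and Ephb4 lie well above their BA-like level in EC-like nuclei.

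Among the A-class ligands, Efna5, which is known for guiding axons by repulsion, was the ligand of adipocytes. Its level in BA-like nuclei was 506 CPM (491 to 522) in the untreated, 260 CPM (247 to 274) in the sham and 614 CPM (592 to 636) in the denervated library. In EC-like nuclei it was 25.5 CPM (20.7 to 31.2), 14.4 CPM (10.7 to 18.8) and 43.5 CPM (31.4 to 58.8), so that the ranges of both types over the libraries did not overlap. The log2 ratio of EC-like over BA-like nuclei was -4.31 (-4.62 to -4.02), -4.18 (-4.61 to -3.78) and -3.82 (-4.29 to -3.38). Over the 9 other settings that gave a ratio it ranged from -4.49 to -4.10, from -4.45 to -3.76 and from -4.57 to -2.43. The subtraction of ambient RNA gave no ratio for Efna5 here and is not in these ranges. BA-like nuclei held 93.9%, 88.9% and 79.5% of the Efna5 UMIs in the kept nuclei of the untreated, sham and denervated libraries. They made up 41.8%, 33.8% and 50.4% of these nuclei and were deeper than EC-like ones. Of the 3809 denervated UMIs of Efna5, 453 lay in white adipocyte-like and 229 in unnamed nuclei. White adipocyte-like nuclei, which numbered 169, 119 and 993 and were named from a list of 5 markers of white fat, had a like level of 388, 333 and 501 CPM. Their log2 ratio over BA-like nuclei was -0.38 (-0.68 to -0.10), 0.36 (-0.05 to 0.74) and -0.29 (-0.44 to -0.15), under the size counted as a difference. Within a library Efna5 was also even among the clusters of BA-like nuclei, at 368 to 556 CPM over 9 untreated, 251 to 285 CPM over 4 sham and 569 to 747 CPM over 7 denervated clusters. These clusters are parts of 1 library each and are no replicates of a condition.

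Efna1, a ligand first described in endothelium and induced there by inflammatory signals, had the opposite pattern. EC-like nuclei had 145 CPM (133 to 158), 102 CPM (91.8 to 113) and 119 CPM (98.4 to 143) in the untreated, sham and denervated libraries, and BA-like nuclei had 7.10, 5.57 and 4.67 CPM. The log2 ratio was 4.35 (3.96 to 4.77), 4.19 (3.67 to 4.76) and 4.68 (4.02 to 5.39). Pericyte-like nuclei had 10.7, 6.76 and 3.66 CPM, from 1 to 7 UMIs a library. The 2 A-class ligands under study thus had opposite patterns between vessel and adipocyte nuclei.

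Both B-class ligands under study, Efnb1 and Efnb2, were EC-high. Efnb3, one of the other family genes described below, was not counted as higher in EC-like nuclei in any library. Efnb1, the X-linked ligand, had 323 CPM (305 to 342), 190 CPM (176 to 205) and 246 CPM (215 to 279) in EC-like nuclei of the untreated, sham and denervated libraries. In BA-like nuclei Efnb1 had 21.5, 13.6 and 15.6 CPM, and in pericyte-like nuclei 87.6, 45.4 and 32.9 CPM. Pericyte-like nuclei were counted as higher than BA-like nuclei in the untreated and sham libraries, at log2 ratios of 2.02 (1.5 to 2.52) and 1.74 (1.19 to 2.28), but not in the denervated one, at 1.07 (-0.11 to 2.07). Efnb2 had 238 CPM (223 to 255), 195 CPM (181 to 210) and 181 CPM (156 to 210) in EC-like nuclei. In BA-like nuclei it had 5.29 CPM (3.85 to 7.11), 10.6 CPM (8.12 to 13.6) and 5.48 CPM (3.61 to 7.97). The log2 ratio for Efnb2 was 5.49 (5.06 to 5.96) in the untreated, 4.20 (3.82 to 4.6) in the sham and 5.05 (4.46 to 5.69) in the denervated library. By the reported setting it was the largest of the 9 genes in the untreated and denervated libraries. Over the other settings that gave a ratio it ranged from 5.44 to 5.64, from 3.91 to 5.75 and from 4.77 to 9.88. The untreated ratio of Epha2 ranged from 3.19 to 6.50, so the rank could change with the setting.

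Of the EphA receptors, Epha4, which binds ligands of both classes, was present at 94.5 CPM (84.9 to 105), 90.3 CPM (80.8 to 101) and 69.4 CPM (53.8 to 88.2) in EC-like nuclei and at 2.41, 4.0 and 2.23 CPM in BA-like nuclei. Its log2 ratio was 5.29 (4.65 to 6.02), 4.50 (3.89 to 5.17) and 4.96 (4.03 to 6.03), by the reported setting the largest of the 9 genes in the sham library. Over other settings the sham ratio of Epha4 ranged from 4.09 to 6.72. Epha2, the main receptor of ephrin-A1 on endothelium, was rare. It had 21.0 CPM (16.6 to 26.2), 11 CPM (7.89 to 15.0) and 26.9 CPM (17.6 to 39.5) in EC-like nuclei, from 79, 40 and 26 UMIs, and 5 to 8 UMIs a library in BA-like nuclei. Its log2 ratio was 4.45, 3.67 and 4.73, with wide intervals that reached down to 3.40, 2.33 and 3.33.

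The EphB receptors were divided by type. Ephb4 had 323 CPM (305 to 342), 216 CPM (201 to 232) and 322 CPM (288 to 360) in EC-like nuclei and 29.2 CPM (25.7 to 33.2), 32.9 CPM (28.4 to 37.9) and 27.0 CPM (22.6 to 32.0) in BA-like nuclei. Its log2 ratio was 3.47 (3.27 to 3.67), 2.72 (2.48 to 2.95) and 3.58 (3.28 to 3.88). Ephb1 had 78.2 CPM (69.6 to 87.7), 74.3 CPM (65.7 to 83.7) and 66.3 CPM (51.1 to 84.7) in EC-like nuclei and 6.26, 5.22 and 10.5 CPM in BA-like nuclei. Among its 3 libraries the EC-like level of Ephb1 did not differ beyond the intervals.

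Ephb2, a receptor studied mostly in axon guidance and at synapses, was lower in EC-like than in BA-like nuclei, with a log2 ratio of -1.89 (-2.71 to -1.16), -1.57 (-2.66 to -0.62) and -1.28 (-2.53 to -0.24). It was no longer counted as lower in the sham library with each nucleus thinned to 500 UMIs, at -1.14 (-2.77 to 0.27). In the denervated library it was not counted with at least 500 detected genes, at -2.27 (-7.59 to 0.25), or without the removal of doublets, at -0.99 (-1.95 to -0.15). Its highest levels were in minor types. Schwann-like nuclei, named from markers of the glia of peripheral nerves, had 210 CPM (68.2 to 490) in the untreated and 168 CPM (93.8 to 276) in the sham library, from 5 and 15 UMIs. The 15 sham UMIs were spread over 10 of 135 nuclei. Over BA-like nuclei this was a log2 ratio of 3.65 (2.0 to 4.91) and 4.21 (3.28 to 5.06), and no cluster of the denervated library met the rule for the name Schwann-like. An unnamed denervated cluster of 44 nuclei was led by Kcna6, Lgi4, Sox10 and Kcna2 among others, and held 2 UMIs of Ephb2, or 71.3 CPM (8.64 to 258). Fibroblast-like nuclei had 267, 23.8 and 145 CPM of Ephb2 from 7, 1 and 7 UMIs. White adipocyte-like nuclei had 42.3 CPM (21.1 to 75.6) in the untreated and 61.9 CPM (46.8 to 80.4) in the denervated library, log2 ratios of 1.34 (0.30 to 2.22) and 1.62 (1.12 to 2.11) over BA-like nuclei. In the sham library 119 such nuclei held 0 UMIs of Ephb2, with an exact upper limit of 22 CPM. The 5 white adipocyte markers summed to 1440, 7110 and 1470 CPM in the untreated, sham and denervated white adipocyte-like nuclei, and the denervated cluster of 993 nuclei was also led by Ptx3, Cxcl1 and Irf1, genes of inflammation. The part of these differences in the values of Ephb2 was not tested.

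Ephb3, a receptor best known from the gut and the nervous system, had few UMIs in any type. It had 42.7 CPM (26.1 to 66.0), 23.2 CPM (14.8 to 34.5) and 11 CPM (2.26 to 32.0) in pericyte-like nuclei of the untreated, sham and denervated libraries, from 20, 24 and 3 UMIs. EC-like nuclei held 2, 2 and 0 UMIs of Ephb3 and BA-like nuclei 1, 2 and 2. In Schwann-like nuclei it had 252 CPM (92.4 to 548) in the untreated and 67.0 CPM (24.6 to 146) in the sham library, from 6 UMIs each. The unnamed denervated cluster led by Sox10 and Lgi4 held 4 UMIs of Ephb3, or 143 CPM (38.9 to 365). Only 33, 40 and 16 UMIs of Ephb3 were found in the kept nuclei of a library, so its other levels rest on single molecules.

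**Figure D2:**
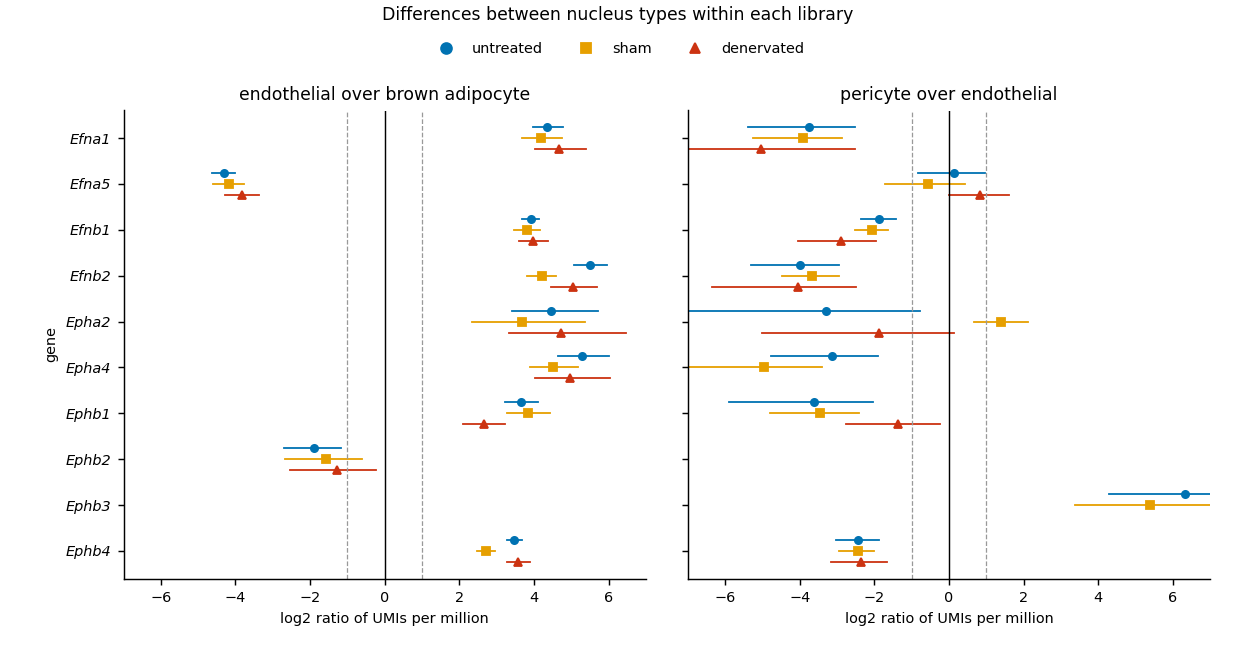
Log2 ratio of CPM of EC-like over BA-like nuclei (left) and of pericyte-like over EC-like nuclei (right) for each gene with at least 20 UMIs over both types, by library (untreated blue circles, sham orange squares, denervated red triangles). Lines are exact 95% intervals cut at the axis limits, dashed lines mark a 2-fold difference, and a gene with 0 UMIs in a type has no point. Efna5 and Ephb2 lie left of 0 on the left side in each library, and Epha2 lies on opposite sides of 0 in the untreated and sham libraries on the right side.

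EC-like nuclei were divided again so that the family could be read along the vessel. Arterial-like, capillary-like and venous-like nuclei were named using markers other than Efnb2 and Ephb4. Other groups were interferon-high (129 untreated nuclei) and immediate early gene-high (673 untreated, 327 sham), and no denervated cluster was named so. In the immediate early gene-high group Efnb2 had 322 and 208 CPM and Ephb4 180 and 230 CPM, neither counted as different from capillary-like nuclei. Efnb2, Efna5 and Epha4 were higher in arterial-like than in capillary-like nuclei in the untreated and sham libraries, and Efnb2 and Efna5 were in the denervated one. These were 3, 3 and 2 of 8 genes with enough UMIs, where 4.57%, 5.21% and 4.03% of all genes were higher. Ephb1 was lower in arterial-like nuclei in the untreated and sham libraries, where 3.40% and 2.52% of all genes were lower, and none of the 8 was in the denervated library, where 1.84% were. The median log2 ratio of the 8 genes was 0.53, 0.17 and 0.52, and that of all genes -0.02, -0.05 and -0.13.

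Efnb2 had 650 CPM (554 to 758) in the 328 arterial-like nuclei of the untreated, 479 CPM (376 to 603) in the 277 of the sham and 607 CPM (389 to 903) in the 88 of the denervated library. In capillary-like nuclei it had 197 CPM (182 to 214), 185 CPM (170 to 201) and 143 CPM (118 to 172). Every arterial-like level was thus above every capillary-like level, with log2 ratios of 1.72 (1.46 to 1.97), 1.37 (1.0 to 1.73) and 2.09 (1.38 to 2.73). With at least 500 detected genes the denervated value of Efnb2 was 0.75 (-0.83 to 2.08) and no longer counted as higher. Efnb2 was not uniform among capillary-like nuclei either, since their 6 untreated clusters ranged from 90.9 CPM (69.7 to 117) to 308 CPM (272 to 347). The receptor Ephb4 ranged from 260 to 363 CPM over the same 6 clusters.

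Epha4, which binds ephrin-B2 besides the A-class ligands, had 343 CPM (274 to 424), 335 CPM (249 to 440) and 126 CPM (41.1 to 295) in arterial-like nuclei and 78.6, 81.7 and 59.8 CPM in capillary-like nuclei. The log2 ratio was 2.13 (1.75 to 2.49), 2.03 (1.57 to 2.47) and 1.08 (-0.61 to 2.41), the last from 5 arterial-like UMIs. With at least 500 detected genes the sham value of Epha4 was 0.57 (-1.73 to 2.14) and no longer counted as higher. Efna5 had 104, 52.5 and 177 CPM in arterial-like and 18.7, 12 and 40.3 CPM in capillary-like nuclei, from 26, 8 and 7 arterial-like UMIs. Its log2 ratio was 2.47 (1.74 to 3.17), 2.13 (0.81 to 3.25) and 2.13 (0.71 to 3.35). Without the removal of doublets the denervated ratio of Efna5 was -0.82 (-2.16 to 0.27). The 9 adipocyte markers summed to 1170, 1020 and 1570 CPM in arterial-like and 1340, 1140 and 1950 CPM in capillary-like nuclei. Over the 6 other settings that gave a ratio, Efna5 ranged from 1.37 to 2.78, from 1.77 to 3.75 and from -0.82 to 3.16. The subtraction of ambient RNA tried as an alternative gave no ratio for Efna5 here in any library. The part of adipocyte RNA in these values of Efna5 was thus not tested. For Ephb1, at 39.9 and 32.8 CPM in arterial-like and 83.7 and 78.9 CPM in capillary-like nuclei, the log2 ratio was -1.07 (-2.15 to -0.16) in the untreated and -1.26 (-2.90 to -0.02) in the sham library. It was no longer counted as lower in either library when at least 500 detected genes were required, with values of -0.44 and -0.75. Efna1, Efnb1 and Ephb4 were not counted as different between arterial-like and capillary-like nuclei in any library.

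Venous-like nuclei were few and their extent depended on the clustering. In the untreated library 50 such nuclei had 783 CPM (562 to 1060) of Ephb4, against 336 CPM (315 to 358) in capillary-like and 279 CPM (218 to 353) in arterial-like nuclei. The log2 ratio of Ephb4 in venous-like over capillary-like nuclei was 1.22 (0.73 to 1.67) in the untreated, 0.74 (0.27 to 1.18) in the sham and -0.30 (-0.82 to 0.18) in the denervated library. Over 8 other settings it ranged from 0.37 to 1.23, from 0.48 to 0.88 and from -0.73 to 0.53. Efnb2 had 38.2 CPM (4.63 to 138), 85.5 CPM (42.7 to 153) and 262 CPM (188 to 356) in venous-like nuclei, a log2 ratio over capillary-like nuclei of -2.37 (-5.42 to -0.51), -1.11 (-2.12 to -0.26) and 0.87 (0.32 to 1.40). The denervated venous-like cluster was also led by the immediate early genes Egr1, Fos and Nr4a1, and with the 3 libraries clustered together the denervated value of Efnb2 was -3.45 (-8.77 to -0.94), with that of Ephb4 at 0.48 (-0.10 to 1.02). Efnb2 was thus ordered arterial-like over capillary-like over venous-like in the untreated and sham libraries, where its venous-like levels rest on only 2 and 11 UMIs. The order of Efnb2 in the denervated library depended on the clustering.

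**Figure D3:**
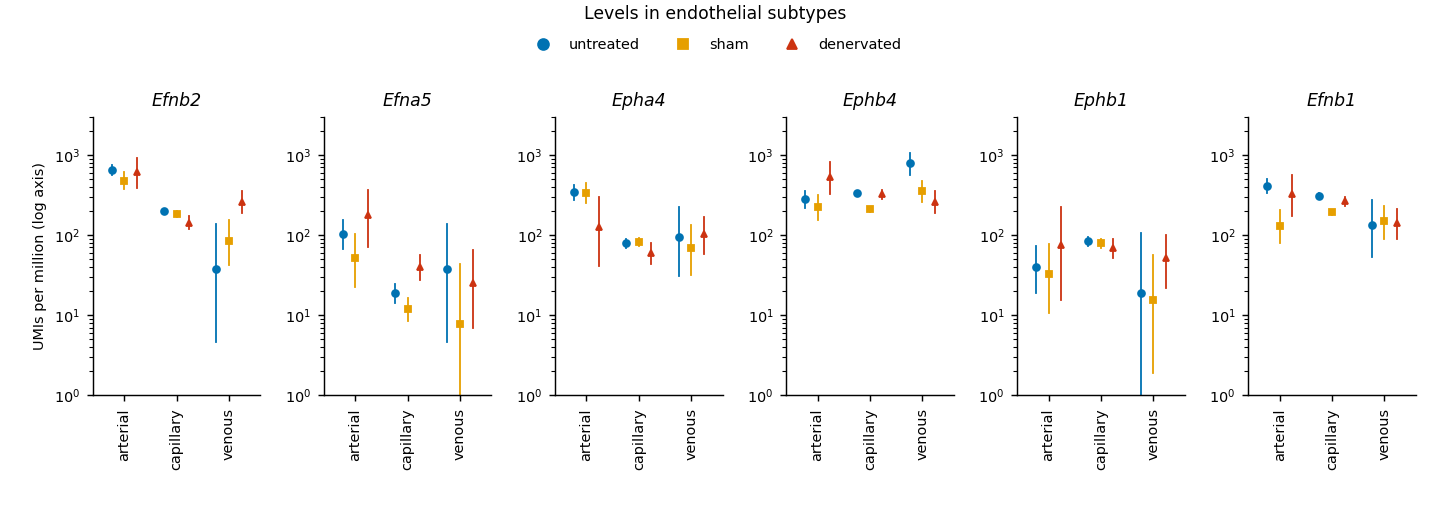
CPM (log axis) of 6 genes in arterial-like, capillary-like and venous-like nuclei of the untreated (blue circles), sham (orange squares) and denervated (red triangles) libraries, with exact 95% Poisson intervals cut at the lower edge of the axis. Efnb2 is at 479 to 650 CPM in arterial-like and at 143 to 197 CPM in capillary-like nuclei, and the denervated venous-like nuclei, whose cluster was led in part by immediate early genes, go against the other libraries for Efnb2 and Ephb4.

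Pericytes are the contractile cells wrapped around capillaries and lie next to ECs, and their levels were mostly far below those of EC-like nuclei. Pericyte-like nuclei had lower levels of 7 of 9, 6 of 9 and 6 of 8 genes in the untreated, sham and denervated libraries, where 13%, 13.1% and 16.7% of all genes were lower. The 6 genes Efna1, Efnb1, Efnb2, Epha4, Ephb1 and Ephb4 were lower in each library. Ephb3 was higher in the untreated library, Ephb3 and Epha2 in the sham library and no gene in the denervated one, where 16.3%, 16.8% and 14.7% of all genes were. Ephb3 reached the minimum of 20 UMIs only through the pericyte-like nuclei, with 20 untreated and 24 sham UMIs there. Its counts as higher are therefore not to be read against these shares. The median log2 ratio was -3.14, -2.45 and -2.64, beside 0.08, 0.15 and -0.04 over all genes. For Ephb4 the log2 ratio was -2.43 (-3.03 to -1.89), -2.45 (-2.94 to -2.0) and -2.37 (-3.17 to -1.67), a difference of about the same size in each. For Efnb1, the gene with the smallest loss among the ligands of ECs, it was -1.88, -2.07 and -2.90. For Ephb3 it was 6.33 (4.29 to 9.47) in the untreated and 5.39 (3.38 to 8.52) in the sham library, from 2 UMIs each in EC-like nuclei. The untreated Ephb3 was no longer counted with at least 500 detected genes or with all libraries clustered together, where its ratio was 6.79 (4.10 to 12.18) and 7.24 (4.58 to 12.62) from fewer UMIs than the minimum of 20. Epha4 had 0 UMIs in denervated pericyte-like nuclei, against 67 in EC-like nuclei, and was at least 6.33-fold lower there when 3 UMIs are taken as the limit.

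Smooth muscle-like nuclei, which numbered 65, 326 and 86, held few UMIs of the family. In the sham library Efnb2 had 68.9 CPM (39.4 to 112) from 16 UMIs there and 15.4 CPM (8.83 to 25.1) in pericyte-like nuclei, a log2 ratio of 2.16 (1.06 to 3.25). The untreated and denervated smooth muscle-like nuclei held 2 and 1 UMIs of Efnb2. Fibroblast-like nuclei had 267 CPM (107 to 550) of Epha4 in the untreated library and 47.6 and 61.9 CPM in the sham and denervated ones, from 7, 2 and 3 UMIs.

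Epha2 in pericyte-like nuclei differed between libraries. It had 1 UMI in 573 untreated nuclei, 30 UMIs in 1365 sham nuclei and 2 UMIs in 630 denervated nuclei, or 2.14 CPM (0.0541 to 11.9), 29.0 CPM (19.5 to 41.3) and 7.31 CPM (0.885 to 26.4). The sham UMIs came from 30 different nuclei and from each of 4 clusters, at 24.9 to 35.9 CPM. Over EC-like nuclei the log2 ratio was -3.30 (-8.62 to -0.78) in the untreated, 1.39 (0.66 to 2.11) in the sham and -1.88 (-5.00 to 0.12) in the denervated library.

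The denervated and the sham library were each set against the untreated one to describe the conditions. In BA-like nuclei none of 8 genes was past the 2-fold limit in the denervated library, where 8.61% of all genes were, and 1 of 8, Efnb2, was in the sham library, where 17.6% were. In EC-like nuclei it was none of 9 in both comparisons, beside 7.48% and 8.08% of all genes. In pericyte-like nuclei it was 3 of 4 in the denervated and 2 of 6 in the sham library, beside 9.10% and 7.08%. Ephb3, with 20 untreated and 3 denervated UMIs, and Epha2, with 1 untreated and 30 sham UMIs, reached the minimum mainly through 1 library. With no minimum of UMIs these counts were 3 of 10 and 2 of 10, beside 5.69% and 4.71%. Between the denervated and the sham library, with the minimum kept, 3 of 8 genes in BA-like and 2 of 8 in EC-like nuclei were past the limit, beside 22.7% and 15.1%. The comparisons share libraries, and with 1 library each a condition cannot be told apart from the library it was measured in.

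For Efna5 in BA-like nuclei the log2 ratio was 0.28 (0.21 to 0.35) in the denervated and -0.96 (-1.05 to -0.88) in the sham library over the untreated one, so that denervated over sham was 1.24 (1.15 to 1.33). The median mitochondrial share of UMIs in BA-like nuclei was 2.77%, 5.85% and 1.60% in the untreated, sham and denervated libraries, the reverse order to Efna5. Over 10 other settings the denervated and sham ratios to the untreated library ranged from 0.22 to 0.38 and from -1.01 to -0.91. Among these settings were at most 10% mitochondrial UMIs and CPM without mitochondrial UMIs. The part of nucleus quality in these ratios was not tested apart from these settings. Ephb2 was of the same order in BA-like nuclei, with 16.7 CPM (14.1 to 19.7) untreated, 9.05 CPM (6.76 to 11.9) sham and 20.1 CPM (16.3 to 24.4) denervated, a denervated over sham ratio of 1.15 (0.65 to 1.66). Ephb1 had a denervated over untreated ratio of 0.75 (0.17 to 1.34) there. Efnb2 in BA-like nuclei was at the limit in the sham library, with a log2 ratio of 1.0 (0.42 to 1.60). It ranged from 0.58 to 1.05 over the 9 other settings that gave a ratio. In EC-like nuclei Ephb4 had a ratio of -0.00 (-0.19 to 0.18) in the denervated and -0.58 (-0.71 to -0.45) in the sham library, and Efnb1 -0.40 (-0.60 to -0.19) and -0.77 (-0.90 to -0.63). Epha4 in arterial-like nuclei had -1.44 (-3.10 to -0.16) in the denervated library, from 5 UMIs. In the sham library Efna1 and Efnb1 had -1.77 (-2.90 to -0.78) and -1.63 (-2.40 to -0.93) in arterial-like nuclei, from 10 and 20 sham UMIs. The median over the 6 genes with enough UMIs in that sham comparison was -0.71, beside -0.09 over all genes.

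In pericyte-like nuclei of the denervated library Efna5 was higher than in the untreated one, with 76.8 CPM (47.5 to 117) against 27.8 CPM (14.8 to 47.5) and a log2 ratio of 1.47 (0.40 to 2.59). In the sham library it was lower, with 9.65 CPM (4.63 to 17.7) and a ratio of -1.53 (-2.87 to -0.22). The levels of Efna5 thus stood in the order sham, untreated, denervated. The 9 adipocyte markers moved the same way in these nuclei, with sums of 913, 692 and 2000 CPM in the untreated, sham and denervated libraries and none at 0, and the level of Efna5 in BA-like nuclei, 506, 260 and 614 CPM, did so too. The same sums in EC-like nuclei were 1340, 1120 and 1880 CPM, beside Efna5 levels of 25.5, 14.4 and 43.5 CPM. With ambient RNA subtracted, Efna5 was no longer counted as different in pericyte-like nuclei, in the denervated or the sham library over the untreated one. The members counted as different were then Efnb1 and Ephb3 in the denervated and Efnb1 and Epha2 in the sham library. The part of adipocyte RNA in these values of Efna5 was not tested apart from this setting. Efnb1 was lower in denervated pericyte-like nuclei, with 32.9 CPM (15.0 to 62.5) against 87.6 CPM (62.9 to 119) and a ratio of -1.41 (-2.64 to -0.35), and Ephb3 was lower too, at -1.96 (-4.36 to -0.21). The sham library went the same way, at -0.95 for Efnb1 and -0.88 for Ephb3, under the size counted as a difference. Over 8 other settings these sham values ranged from -1.17 to -0.74 and from -1.30 to -0.69. With each nucleus thinned to 500 UMIs and the minimum of 20 UMIs kept, no member was counted as different in pericyte-like nuclei in the denervated or the sham library, and the denervated values of Efna5 and Efnb1 were 1.26 (-0.40 to 2.85) and -0.62 (-2.64 to 0.96). The sham values of Efna5 and Epha2 after thinning were -2.15 (-4.07 to -0.41) and 2.70 (0.02 to 8.09), past the limit in size but from fewer than 20 UMIs. The denervated Ephb3 gave no ratio after thinning, and it ranged from -2.21 to -1.84 over the 6 other settings that gave a log2 ratio to the untreated library. With all libraries clustered together the denervated value of Efna5 was 1.13 (-0.05 to 2.34) and not counted. The 9 pericyte markers summed to 13700, 15600 and 8770 CPM in the untreated, sham and denervated pericyte-like nuclei, and their part in these values was not tested.

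**Figure D4:**
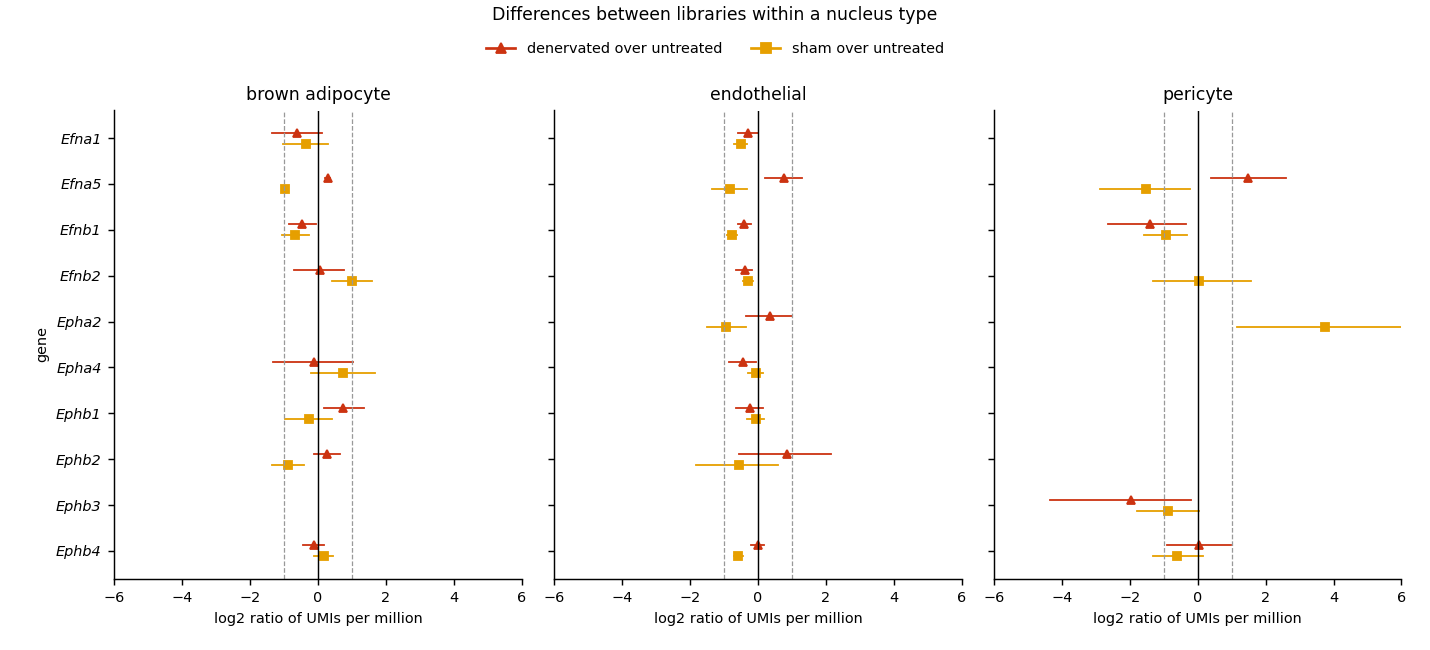
Log2 ratio of CPM of the denervated (red triangles) and the sham library (orange squares) over the untreated library in BA-like, EC-like and pericyte-like nuclei, for genes with at least 20 UMIs over both libraries. Lines are exact 95% intervals for counting error only, cut at the axis limits, and dashed lines mark a 2-fold difference. In EC-like nuclei no gene lies past a dashed line, and in pericyte-like nuclei Epha2 lies at 3.76 in the sham library.

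The share of nuclei with at least 1 UMI was compared after thinning each nucleus to 500 UMIs, because BA-like nuclei were deeper than EC-like ones. Nuclei with fewer UMIs were left out, which took 1743, 2678 and 1567 EC-like and 155, 214 and 544 BA-like nuclei from the untreated, sham and denervated libraries. Efna5 was then found in 20.3% (19.1 to 21.5, Clopper-Pearson), 10.6% (9.66 to 11.6) and 25.1% (23.8 to 26.4) of BA-like nuclei, and in 1.05%, 0.745% and 1.37% of EC-like nuclei. Without thinning its BA-like shares were 46.6%, 25.1% and 37.6%, and the order of the untreated and denervated libraries turned around, against that of the CPM. Efna5 was the only member with a UMI in over 10% of thinned BA-like nuclei, and the next was Ephb4 with 1.41%, 1.82% and 1.19%.

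In EC-like nuclei thinned in this way Ephb4 was found in 14.3% (13.2 to 15.5), 9.91% (8.88 to 11) and 18% (15.0 to 21.4), against unthinned shares of 18.4%, 11.5% and 12.2%. Efnb1 was found in 14.6%, 8.52% and 11.3%, Efnb2 in 10.8%, 7.84% and 7.20% and Efna1 in 6.97%, 4.83% and 5.83%. Without thinning these were 17.4% and 9.77% for Efnb1 in the untreated and denervated libraries, and in all 3 libraries 12.8%, 9.69% and 7.07% for Efnb2 and 9.22%, 5.71% and 4.93% for Efna1. In thinned arterial-like nuclei Efnb2 rested on 63 of 236, 31 of 139 and 5 of 27 nuclei, or 26.7%, 22.3% and 18.5%. In BA-like nuclei the thinned share of Efnb2 was 0.295%, 0.530% and 0.183%.

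Efnb2 and its receptor Ephb4 were not found apart in EC-like nuclei as a whole. In thinned nuclei with a UMI of Efnb2, 12.8% (9.64 to 16.5), 9.92% (6.46 to 14.4) and 16.7% (6.97 to 31.4) also had a UMI of Ephb4, against 14.5% (13.3 to 15.7), 9.91% (8.84 to 11.1) and 18.1% (15.0 to 21.6) of those without Efnb2. For Efnb1 and Ephb4 these shares were 15.7%, 9.13% and 16.7% with the ligand and 14.0%, 9.98% and 18.2% without it. Before thinning, 25.1% (22.4 to 28.1) of untreated nuclei with Efnb1 and 17% (15.9 to 18.1) of those without it had Ephb4, and after thinning, which also left 3613 of 5356 nuclei, the intervals of these shares, 12.7% to 19.1% and 12.8% to 15.3%, overlapped. In arterial-like nuclei only 4, 3 and 2 thinned nuclei had UMIs of both Efnb2 and Ephb4, too few to compare.

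Since free RNA can give UMIs in nuclei that do not make a transcript, the level of each gene in its lower type was set beside that of markers. The endothelial marker list reached 2.53%, 3.06% and 2.25% of its EC-like level in BA-like nuclei of the untreated, sham and denervated libraries, and the single marker with the largest share reached 5.88%, 4.45% and 8.36%. Doublets had been removed with these same markers, which lowers these shares, but not with the ephrin and Eph genes. Ephb4 reached 9.05% (7.85 to 10.4), 15.2% (12.9 to 17.9) and 8.37% (6.78 to 10.3) of its EC-like level, above the list in each library and, with its whole interval, above each single marker in the untreated and sham ones. Efnb1 reached 6.66% (5.66 to 7.80), 7.14% (5.58 to 9.04) and 6.36% (4.85 to 8.26), and Ephb1 8.0%, 7.03% and 15.9%. Efnb2 and Epha4, at 2.22%, 5.44% and 3.02% and at 2.55%, 4.43% and 3.21%, were closer to the list, whose value lay within the interval of Efnb2 in the untreated and denervated libraries and within that of Epha4 in each library.

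In the other direction the 8 adipocyte markers used to call doublets, another list than the 9 markers summed above, reached 11.3%, 8.07% and 15.3% of their BA-like level in EC-like nuclei as a sum, with single markers between 3.63% and 40.4% over the libraries. Efna5 reached 5.05% (4.08 to 6.18), 5.52% (4.11 to 7.28) and 7.09% (5.10 to 9.61), below the list in each library. Ephb2 reached 27.0% (15.3 to 44.9), 33.6% (15.8 to 65.1) and 41.3% (17.3 to 84.6), from 17, 11 and 8 UMIs. These values of Ephb2 lay above the list, but their intervals took in the highest single marker of each library, at 25.8%, 19.5% and 40.4%.

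**Figure D5:**
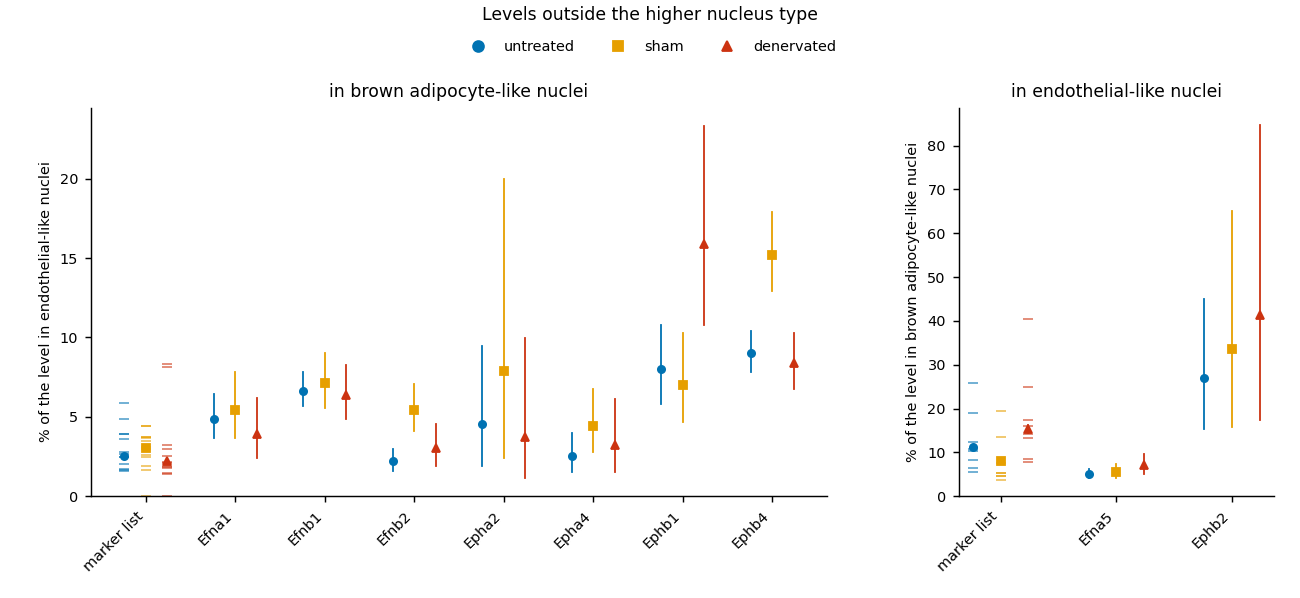
Level of each gene in its lower nucleus type as a percent of its level in the higher one, for genes that are EC-high (left, in BA-like nuclei) and BA-high (right, in EC-like nuclei), by library (untreated blue circles, sham orange squares, denervated red triangles), with exact 95% intervals. In the first position of each side the points give the summed marker list and the dashes its single markers. Ephb4 lies at 8.37% to 15.2% and the endothelial marker list at 2.25% to 3.06%, and Efna5 lies below the adipocyte marker list in each library.

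Most of the 12 other ephrin and Eph genes had few UMIs, but Epha6 had 389, 283 and 371 in the kept nuclei of the untreated, sham and denervated libraries, more than Epha2, Ephb2 and Ephb3 in each. Epha6, Epha3, Epha5, Epha7, Efna2 and Efnb3 had at least 50 UMIs in the kept nuclei of at least 1 library. Of the 6, 6 and 5 genes with enough UMIs to compare EC-like and BA-like nuclei in the untreated, sham and denervated libraries, 0 were higher in EC-like nuclei and 2, 2 and 1 were lower, where 18.7%, 19.8% and 17.8% of all genes were higher and 26.5%, 24.2% and 21.9% lower, so that with so few genes the counts were near those shares. These were Efna2 and Epha5, then Efna2 and Epha3, then Epha7. Epha6 had close levels in both types, with 25.3, 17.4 and 42.5 CPM in EC-like and 30.2, 27.1 and 46.5 CPM in BA-like nuclei. Epha7 was highest in Schwann-like nuclei, at 252 CPM (92.4 to 548) in the untreated and 123 CPM (61.4 to 220) in the sham library. Epha3 had 381 CPM (183 to 701), 23.8 CPM and 124 CPM in fibroblast-like nuclei, from 10, 1 and 6 UMIs.

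Of 34 signalling partners, adaptors, kinases, phosphatases, exchange factors and proteases known to act with ephrins or Eph receptors, 31, 31 and 32 had enough UMIs in EC-like and BA-like nuclei. Of these 15, 15 and 16 were higher in EC-like nuclei and 7, 6 and 5 were lower. Of all genes 18.7%, 19.8% and 17.8% were higher and 26.5%, 24.2% and 21.9% lower, so the partners counted as lower were at or below the share of all genes. The partners had a median log2 ratio of 0.61, 0.63 and 1.02. The largest ratios in the untreated library were those of Vav3, an exchange factor, at 5.89 (5.50 to 6.31), of Ptprb, a phosphatase of endothelium that was also among the endothelial markers, at 5.85 (5.69 to 6.01), and of Arhgef15, an exchange factor of vessels, at 5.46 (5.17 to 5.78). They were 5.19, 5.09 and 5.27 in the sham and 4.68, 5.81 and 6.03 in the denervated library. The smallest were those of Grip1, a scaffold that binds the tail of B-class ephrins, at -3.56 (-4.09 to -3.07), of Ngef, an exchange factor that binds EphA4, at -2.92 (-4.16 to -1.90), and of Pik3r1, the regulatory subunit of phosphoinositide 3-kinase, at -2.35 (-2.46 to -2.24). Pik3r1 was alike in the sham and denervated libraries, at -2.36 and -2.27. Ngef was not counted as lower there, at -0.75 (-2.39 to 0.68) and -1.26 (-2.93 to 0.05). Grip1 was not alike in the 3 libraries, since its BA-like level was 110 CPM in the untreated, 11.7 CPM in the sham and 71.4 CPM in the denervated library.

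The genes with the most similar pattern were sought by Pearson's r of log2(CPM + 5) over 30 points, each 1 nucleus type in 1 library, among 8776 genes with at least 500 UMIs. These points share libraries and depth, and r is given as a description. Efna5 was closest to Acaca (r = 0.89), Plin1 (0.89) and Pnpla3 (0.87), genes of lipid synthesis and storage. Efnb2 was closest to Sox18, Myo10 and Cd200 (0.91 each), and Epha4 to Dennd3 (0.88), Fam198b and Nxn (0.86 each). Efna1 was closest to Ppp1r16b and Cavin2 (0.95 each) and Cd300lg (0.94), and Efnb1 to Slc9a3r2 (0.92), Ly6c1 and Btnl9 (0.90 each). Ephb4 was closest to Podxl (0.91), Tie1 and Cavin2 (0.90 each), and Ephb1 to Bcl6b, Kif26a and Ccdc88c (0.86 each). Acaca, Plin1, Cd300lg, Btnl9 and Tie1 were among the markers that named the types, and Epha2, Ephb2 and Ephb3 had under 500 UMIs and were not ranked.

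The counts of Ephb4 and Ephb1 could include reads of genes on the other strand, since whether counting used the strand was not given in the sources used here. Ephb4 (chr5:137350109-137378669, plus strand) overlaps Zan, which had 99 UMIs over all barcodes, and Ephb1 (chr9:101922128-102354693, minus strand) overlaps 9630041A04Rik, which had 31. The 10 genes are protein-coding in GENCODE vM21 on GRCm38, and Efna5 (chr17:62604184-62881317), Ephb2 (chr4:136647539-136835988) and Ephb3 (chr16:21204755-21223305) overlap no other gene there.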

How the data were processed

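Nuclei of the 3 libraries were made with a BD Rhapsody whole transcriptome assay. The authors deposited counts of UMIs per nucleus and gene, after recursive substitution error correction (RSEC) of UMIs by the BD pipeline (headers of the untreated and denervated tables: GRCm38, GENCODE vM19; the sham table has no header, and the labels name GRCh38, a human build). The library labels also name Seurat 4.0.6. Barcodes needed 200 or more genes and no more than 50% mitochondrial UMIs, and 861, 1661 and 728 doublets were removed from the untreated, sham and denervated libraries, called where 2 marker lists each had 3 or more UMIs and the smaller sum reached 25% of the larger. Nuclei were clustered within a library (2000 variable genes, 30 principal components, 20 neighbours, Louvain at resolution 0.5, subtypes at 1), with all ephrin, Eph and mitochondrial genes left out, and named from marker lists. The thresholds for naming and the second clustering of adipocytes were set after clusters had been seen, and 76, 354 and 633 nuclei stayed unnamed. The untreated, sham and denervated tables held 14971579, 14725864 and 9420030 UMIs. CPM, exact intervals and ratios were computed with python 3.11.15, numpy 2.4.6, scipy 1.17.1, scikit-learn 1.9.0 and python-igraph 0.11.9, and the scripts were tested on simulated data. All 10 genes are given, with other family genes of at least 50 UMIs, the 3 partners with the largest and the 3 with the smallest ratio in the untreated library, and the 3 genes of most similar pattern. The members and lists were chosen with earlier results of these data known. Alternatives changed filters, doublets, clustering, ambient RNA, depth, scale, reference library and the size of a counted difference. Both alternatives on how adipocyte nuclei were grouped, those for venous-like nuclei and the shares without thinning were chosen after seeing the data. The study's own removal of debris and ambient RNA was not repeated, and subtraction of ambient RNA was tried as an alternative.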

Additional observations from a re-analysis of the deposited data

Results flagged for a closer look

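Epha2 stood on opposite sides of a 2-fold difference in 2 settings. In the denervated over the sham library its log2 ratio was 1.29 in EC-like and -1.99 in pericyte-like nuclei. In pericyte-like over EC-like nuclei it was -3.30 in the untreated and 1.39 in the sham library. These rest on 1, 30 and 2 pericyte-like UMIs of Epha2 in the untreated, sham and denervated libraries. Ephb4 in arterial-like over venous-like nuclei was -1.49 in the untreated and 1.02 in the denervated library, where the venous-like cluster was led in part by immediate early genes. None of these differences between libraries or types was tested, since each condition had 1 library.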

How the results depend on the processing

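Over the settings tried, 204 counts of members stayed within 1.5 times the reported count and 40 did not. With at least 500 detected genes, the members lower in EC-like than BA-like nuclei were 1 in the denervated library, those lower in arterial-like than capillary-like nuclei 0 in the untreated and sham libraries, those higher 0 in the denervated one, and those higher in pericyte-like than EC-like nuclei 0 in the untreated one. Sham over untreated gave 0 of 8 in BA-like and 2 of 8 in EC-like nuclei (17.4% and 9.54% of all genes). With at most 10% mitochondrial UMIs, 1 was higher in denervated pericyte-like nuclei. Sham over untreated then gave 0 of 8 in BA-like and 1 of 8 in EC-like nuclei (17.4% and 10.6% of all genes). Without removal of doublets, 1 was lower in denervated EC-like nuclei, 0 lower in untreated and 1 higher in denervated arterial-like nuclei, and the denervated arterial-like ratio of Efna5 turned to -0.82. Denervated over untreated gave 2 of 9 in EC-like and sham over untreated 0 of 8 in BA-like nuclei (10.7% and 17.7% of all genes). With all libraries clustered together, 0 were lower in sham arterial-like and 0 higher in untreated pericyte-like nuclei. Sham over untreated then gave 2 of 8 in BA-like nuclei, as it did with adipocytes not clustered again (17.5% and 17.7% of all genes). At 2 times the resolution, 0 were lower in sham and 1 higher in denervated arterial-like nuclei, and 1 was higher in denervated pericyte-like nuclei (as with no minimum of UMIs). Denervated over untreated then gave 1 of 9 in EC-like and sham over untreated 0 of 8 in BA-like nuclei (7.74% and 17.4% of all genes). With ambient RNA subtracted, 1 was higher in denervated arterial-like nuclei. Denervated over untreated gave 1 of 6 in BA-like and sham over untreated 1 of 7 in EC-like nuclei (8.42% and 10.1% of all genes). Thinned to 500 UMIs, 1 was lower in sham EC-like nuclei, denervated over untreated gave 1 of 7 in BA-like and 0 of 2 in pericyte-like nuclei (6.72% and 7.80% of all genes), and sham over untreated gave 3 of 7, 1 of 8 and 0 of 2 in BA-like, EC-like and pericyte-like nuclei (17.3%, 8.55% and 7.39% of all genes). At a log2 limit of 0.58, denervated over untreated gave 1 of 8 in BA-like and 1 of 9 in EC-like nuclei (18.6% and 15.3% of all genes) and sham over untreated 4 of 8 and 4 of 9 (33.9% and 20.7%). Against the sham library, denervated nuclei gave 3 of 8 in BA-like and 2 of 8 in EC-like nuclei, where 22.7% and 15.1% of all genes were past the limit. The cause of these shifts was not tested. No paired analysis was possible because each condition had 1 library, which also left no replicate to leave out. With at least 500 detected genes the denervated library had no pericyte-like nuclei, and the difference of mean log2 values, which is on another scale, gave no counts and moved 81 of 145 single values.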
